A study of Mus musculus with 12 samples.

Results

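Splenic B cells of Cre-only mice and of Runx1 c-k/o mice were compared at the RNA level after 3 h of activation with anti-IgM and IL-4, using all 6 libraries of that time point (3 per genotype) out of the 12 libraries of the series, and every gene of the count table. The cells were resting B cells purified by negative selection from the spleens of mice aged 8 weeks, of strain C57B6. The Cre-only mice carried the CD23-iCre transgene alone. The Runx1 c-k/o mice carried the same transgene and floxed Runx1 alleles (Runx1 fl/fl), so that exon 4 of Runx1 was removed from the transitional B cell stage onward, where the CD23 promoter first drives Cre. Both genotypes therefore expressed Cre, and the deletion predates activation, so that a difference at 3 h can come from the resting state or from the response. The other 6 libraries, from the same genotypes before activation, were used only to set the resting difference of a gene beside its difference at 3 h.

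RUNX1 is the DNA-binding subunit of core binding factor, pairs with CBFB, and can activate or repress a gene depending on its partners. In B cells, cross-linking of the BCR by anti-IgM starts kinase cascades that within hours switch on immediate early genes such as the AP-1, EGR and NR4A factors, while IL-4 acts through STAT6 and favors entry into the cell cycle. B cells also keep a low tonic activity of the type I interferon pathway, in which IFNAR1 and IFNAR2 signal through the kinases TYK2 and JAK1 to a set of antiviral genes.

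Of 13538 genes with enough counts to be tested, 375 differed between the genotypes at 3 h at an adjusted p under 0.05 in edgeR's quasi-likelihood test (2.77% of those tested). In the Runx1 c-k/o cells 199 genes were higher (1.47%) and 176 were lower (1.30%). The median log2 fold change (Runx1 c-k/o over Cre-only) was 1.01 among the higher genes and -0.87 among the lower ones, and 100 genes rose and 71 fell by more than 2-fold. Of the 375 genes, 373 had no overlap between the 3 samples of one genotype and the 3 of the other, whereas 21.8% of all tested genes had none. The calls rest on these same samples, so this separation is not separate support for them. By the rule for printing values, called members of a list were taken from genes without overlap. The count depended on single libraries. It was 180 without Cre-only replicate 1, 194 without Cre-only replicate 2, 229 without Cre-only replicate 3 and 617 without Runx1 c-k/o replicate 3, and 152 of the 375 genes (87 higher, 65 lower) kept their call in each of the 6 fits that left out 1 library.

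**Figure D1:**
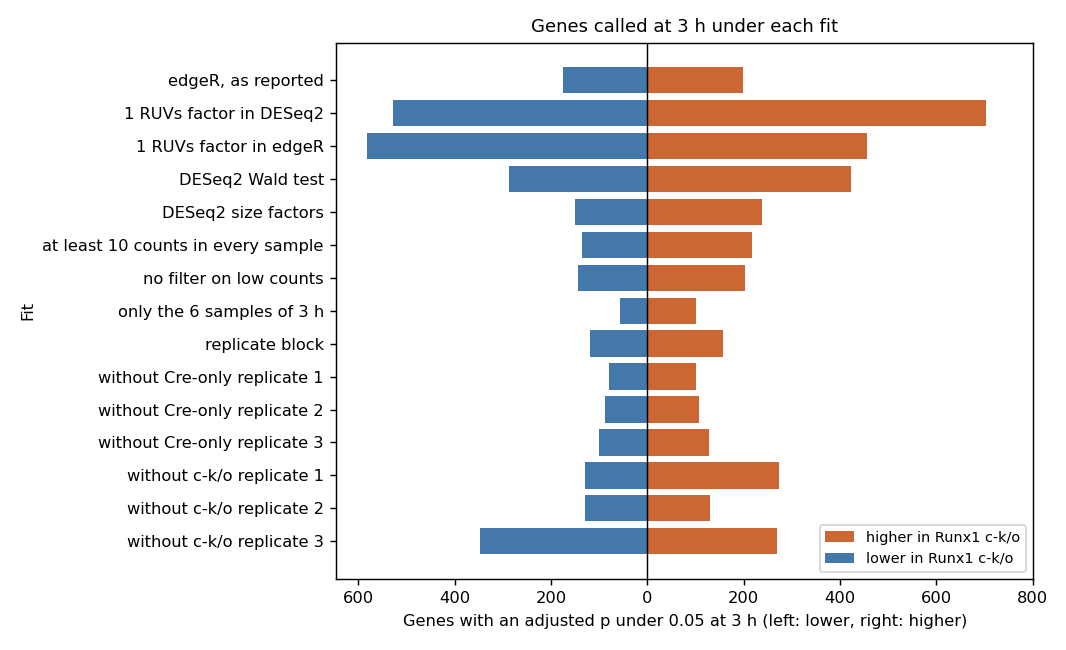
Number of genes called at 3 h (x axis; right of 0 higher, left of 0 lower in Runx1 c-k/o cells) in the fit as reported (top bar) and in the other fits. The fits that left out 1 library call 180 to 617 genes, and those with an estimated factor of unwanted variation (RUVs) 1036 and 1230.

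Grouped by function, the higher genes included many interferon-stimulated genes, and the lower genes included mitosis genes and most of the called membrane transporters. Lysosomal genes and actin regulators were called in both directions. The function lists and the lists of cell type markers together held 1336 tested genes, of which 106 were called higher and 79 lower. The median log2 fold change of all tested genes was 0.01, and each list below is set against that value and the shares called above. The lists and their members were chosen with earlier results of these data known. A share of calls above that of all tested genes is therefore a description only.

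**Figure D2:**
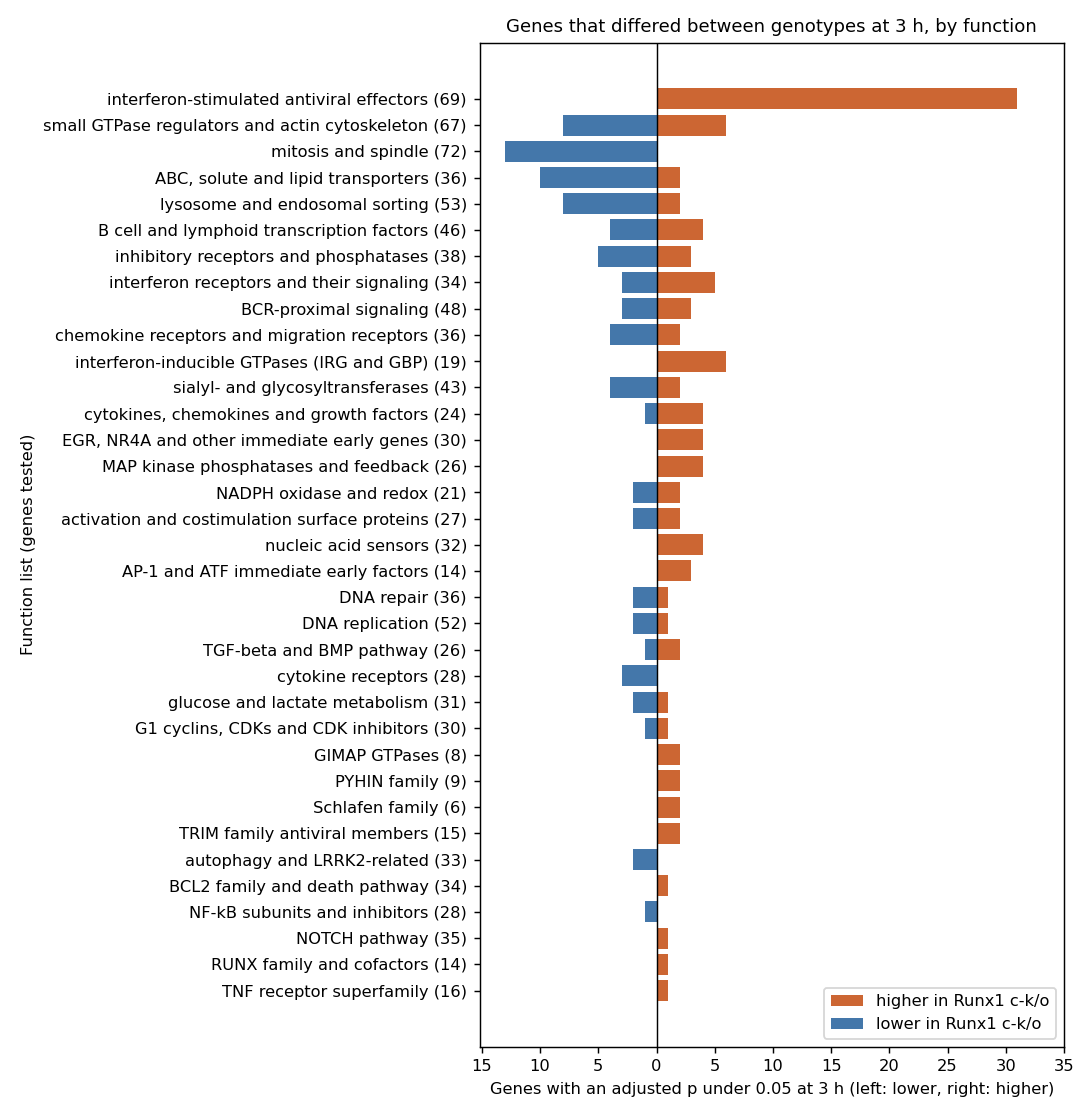
Number of genes called at 3 h in each function list with a called member. Bars to the right (orange) count genes higher and bars to the left (blue) genes lower in Runx1 c-k/o cells, with the number of tested genes of the list in parentheses; a gene can be in more than 1 list. The bar of antiviral effectors reaches 31 genes, all higher, and that of mitosis and spindle genes 13, all lower.

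Library totals at 3 h ran from 15283038 to 23641552 counts, so that a gene at the floor of 3 counts would read 0.127 to 0.196 CPM before scaling (counting error only). Runx1 c-k/o replicate 1 stood apart. It had counts on 16565 genes where the other libraries of 3 h had them on 17048 to 17770, and its 100 most abundant genes took 23.1% of counts against 18.6% to 19.6%. Against the other Runx1 c-k/o replicates, its 3380 genes with the shortest exon length lay higher by a median of 0.24, and the median of its 3378 longest genes fell by 0.31, on the log2 scale. Of the 199 genes called higher at 3 h, 47 were among these shortest genes and 36 among the longest. Of the 176 called lower, 33 were among the shortest and 62 among the longest. The B cell identity markers (19 genes, among them Cd79a and Ms4a1) summed to 1.15e+04 to 1.25e+04 normalized CPM in every library of 3 h, and edgeR called 0 of them (5 at an unadjusted p under 0.05; DESeq2 called 1 higher and 1 lower). The 18 macrophage markers summed to 185 CPM in Runx1 c-k/o replicate 2 and to 50.8 to 67.1 in the other libraries of 3 h. Platelet markers (12 genes) summed to 88.7, 110 and 121 CPM in the Cre-only samples and to 60, 69.2 and 81.7 in the Runx1 c-k/o samples. EdgeR called 0 macrophage markers (3 at an unadjusted p under 0.05, and 0 by DESeq2) and 0 platelet markers (1 at an unadjusted p under 0.05, and 1 by DESeq2). Of 14 tested dendritic cell markers Pacsin1 was higher and Ccr9 lower, with 0 called without Cre-only replicate 1, Cre-only replicate 2 or Runx1 c-k/o replicate 2 and 1 without Runx1 c-k/o replicate 1. The 12 erythroid markers summed to 657 to 834 CPM in the libraries of 3 h. Among them, Hbb-b1 was at 9.08 CPM in Cre-only replicate 2 and at 72.9 to 149 in the other libraries of 3 h. Alas2 was at 0.653 CPM in Cre-only replicate 2 and at 5.41 to 8.8 in the others. EdgeR called 0 erythroid markers (1 at an unadjusted p under 0.05, and 1 by DESeq2). The part of these differences in the results was not tested. Since the RNA came from whole cell populations, fewer cells of a type and less RNA per cell cannot be told apart.

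The Runx1 gene (mm9 chr16:92601712-92826311, minus strand) itself was counted at 38.5, 37 and 34.9 normalized CPM in the Cre-only samples and at 47.3, 70.6 and 74.5 in the Runx1 c-k/o samples. Each Runx1 c-k/o sample exceeded each Cre-only sample (log2 fold change 0.80, SE 0.137, edgeR adjusted p = 0.00769). Reads of every exon enter this count, and an antisense gene overlaps Runx1, so this value does not check the removal of exon 4. Of 14 tested genes of the RUNX family and its cofactors, Runx1 alone was called. Along the same stretch of chromosome 16 in mm9 (chr16:91465349-92826311, 19 tested genes) Ifnar1 and Itsn1 were also higher and the noncoding gene A930006K02Rik was lower.

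Of 69 tested antiviral effectors of the interferon response, 31 were called higher and 0 lower, 63 had a positive log2 fold change, and the median of the list was 0.74. The called members rose by 0.48 to 2.22 on the log2 scale. In 43 of the 69 genes each Runx1 c-k/o sample exceeded each Cre-only sample, against 9.50% of all tested genes. Usp18, whose product removes ISG15 from proteins and dampens signaling from the type I receptor, was at 6.04, 4.05 and 6.88 CPM in the Cre-only samples and at 18.9, 20.3 and 23.1 in the Runx1 c-k/o samples. The groups were far apart (log2 fold change 1.87, edgeR adjusted p = 0.000107). Rtp4, an interferon-induced chaperone of receptors, was at 4.7, 3.46 and 6.31 CPM against 14.3, 15.9 and 16.4 (log2 fold change 1.69, edgeR adjusted p = 0.000295). Oas1a, one of the oligoadenylate synthetases that activate RNase L, was at 3.06, 2.22 and 2.68 CPM against 7.66, 9.51 and 7.36 (log2 fold change 1.60, edgeR adjusted p = 0.00029). Gm4902 was at 8.16, 6.99 and 8.41 CPM against 14.7, 15.6 and 16.5 (log2 fold change 0.99, edgeR adjusted p = 0.000257). In these 4 genes every Runx1 c-k/o sample was above every Cre-only sample, and they kept their calls without any 1 library. Also called were Isg15, the ubiquitin-like modifier; Ifit1, Ifit2, Ifit3 and Gm14446, of the family that binds foreign RNA; Oas1c, Oas2, Oas3, Oasl1 and Oasl2; Ifitm3, which blocks the entry of viruses; Mx2; Eif2ak2, the RNA-activated kinase PKR; and Ddx60, Cmpk2, Xaf1, Isg20, Mov10, Parp12, Epsti1, Phf11, Lgals9, Lgals3bp, Ifi27l2a, Tor3a, Ly6a and Ly6c1. The number called was 14 with the 6 samples of 3 h alone, 51 and 50 with 1 factor of unwanted variation (RUVs) in DESeq2 and edgeR, 16 without Cre-only replicate 1 and 17 without Cre-only replicate 2, and 16 of the 31 were called in all 6 fits that left out 1 library. Near-identical members of the Oas, Ifit and Ly6 families can share reads, so that their single values are less certain than the group.

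Many interferon-stimulated genes carry a promoter element, the interferon-stimulated response element, whose core was searched as GAAANNGAA on both strands in the 250 bases before and 50 bases after each gene's start in the RefSeq promoter table (GRCm38.p6). It occurred in 8.58% of the 27025 promoters of that table. Promoters were matched for 21 of the 31 called effectors, under the 80% set as a minimum, so no share is given for them. The stretches around the match closest to the start of Isg15 (chr4:156200836-156200924, minus strand), Ifit1 (chr19:34640765-34640853, plus strand) and Oas1a (chr5:120907526-120907579, minus strand) are shown because these genes stand for 3 families of the group; they were picked after their values were seen. The match is in capitals, and in Ifit1 it is read on the opposite strand.
Isg15: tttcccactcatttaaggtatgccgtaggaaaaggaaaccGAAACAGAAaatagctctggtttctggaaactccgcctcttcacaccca
Ifit1: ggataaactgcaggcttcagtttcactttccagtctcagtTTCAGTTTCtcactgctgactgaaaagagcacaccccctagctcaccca
Oas1a: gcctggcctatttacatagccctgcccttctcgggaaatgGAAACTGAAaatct
The promoters of Irf7 and Oasl1, searched in the same way, held 0 upstream matches, and a match is a description of letters only.

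The interferon pathway's own components moved in both directions. Of 34 tested receptors and signaling genes, 5 were higher and 3 lower, with a median of 0.03. Irf7, the transcription factor that amplifies the type I response, was at 13.6, 12.6 and 19.1 CPM in the Cre-only samples and at 50.6, 55.1 and 50.1 in the Runx1 c-k/o samples. The lowest Runx1 c-k/o sample was above the highest Cre-only sample (log2 fold change 1.78, SE 0.144, edgeR adjusted p = 7.17e-05). Ifnar1, a subunit of the type I receptor, was at 174, 169 and 153 CPM against 282, 308 and 324 (log2 fold change 0.88, edgeR adjusted p = 0.000415). Both genes kept their calls without any 1 library. Irf5 and Irf9 were also called higher, but lost the call without Cre-only replicate 1 (edgeR adjusted p = 0.0763 and 0.108), and Irf9 shares its locus and strand with Rnf31. The lower genes were Il28ra, the receptor chain for type III interferons, Tyk2 and Ptpn1, a phosphatase that acts on JAK kinases. Il28ra was at 3.67, 3.14 and 2.99 CPM against 1.48, 1.57 and 1.18 (log2 fold change -1.22, edgeR adjusted p = 0.00979). Each of the 3 lower calls was lost without Cre-only replicate 1, where the list gave 3 calls, and it gave 4 without Cre-only replicate 2, 4 without Cre-only replicate 3 and 5 without Runx1 c-k/o replicate 2.

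Other families of genes that respond to interferon held higher calls and 0 lower calls in edgeR's test, though most of their members did not pass it. Of 19 interferon-inducible GTPases, which act at vacuoles that hold pathogens, 6 were called (Irgm1, Gbp6, Ifi47, Igtp, Gm12250 and Tgtp2) and the median was 0.54. Irgm1 was at 59.8, 45.5 and 63.4 CPM against 90.8, 86.7 and 106 (log2 fold change 0.75, edgeR adjusted p = 0.00541). The groups did not overlap, and the number of GTPases called was 3 without Cre-only replicate 2, 3 without Cre-only replicate 3, 4 without Runx1 c-k/o replicate 2 and 4 without Runx1 c-k/o replicate 3. Of 32 nucleic acid sensors 4 were called, with a list median of 0.01; at an unadjusted p under 0.05, 9 were higher and 3 lower. Zbp1, a sensor of Z-form nucleic acid, was at 29.7, 24.8 and 31.5 CPM against 58.1, 55.6 and 64 (log2 fold change 1.04, edgeR adjusted p = 0.000157). E330016A19Rik, an older symbol of the gene for the DNA sensor cGAS, was at 5.52, 5.68 and 6.88 CPM against 14.1, 14.9 and 17.6 (log2 fold change 1.37, edgeR adjusted p = 0.000257). Both genes were separate between the genotypes in all samples. Ifih1, the RNA sensor MDA5, was at 3.5, 3 and 4.01 CPM against 5.54, 10.4 and 8.95 (log2 fold change 1.24, edgeR adjusted p = 0.00746), and Dhx58 was the fourth, with its call lost without Cre-only replicate 1 (edgeR adjusted p = 0.114).

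In 4 further families 2 genes each were higher, namely Pydc3 and Pydc4 of 9 tested PYHIN genes (median 0.55), Slfn1 and Slfn8 of 6 Schlafen genes (median 0.77), Trim30a and Trim30d of 15 antiviral TRIM genes (median 0.28) and Gimap3 and Gimap4 of 8 GIMAP genes (median 0.33). Pydc3 was at 7.85, 6.08 and 11.4 CPM against 17.9, 30.8 and 29.8 (log2 fold change 1.63, edgeR adjusted p = 0.00239). Slfn1 was at 1.21, 0.523 and 0.956 CPM against 3.8, 3.28 and 3.95 (log2 fold change 1.99, edgeR adjusted p = 0.00769). Pydc3 and Slfn1 kept their calls without any 1 library. Pydc4, Slfn8, Trim30a and Trim30d lost theirs without Cre-only replicate 2 (edgeR adjusted p = 0.127, 0.184, 0.0948 and 0.0789), and Gimap3 and Gimap4 without Cre-only replicate 1 (0.0984 and 0.0795). Without Runx1 c-k/o replicate 1, the library that stood apart, 39 antiviral effectors, 7 GTPases, 7 sensors, 5 PYHIN genes, 3 Schlafen genes and 7 TRIM genes were called, all higher, and the medians of the PYHIN, TRIM and GIMAP lists were 0.87, 0.45 and 0.16; the PYHIN median was 0.36 without Runx1 c-k/o replicate 2 and 0.84 without Cre-only replicate 3.

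Several of these genes lie side by side in mm9. Ifit2, Ifit3, Gm14446 and Ifit1 were 4 of 6 tested genes in chr19:34625184-34724499, Oas2, Oas3, Oas1c and Oas1a 4 of 6 in chr5:121180342-121357536, and Gm4955, BC094916, Pydc4 and Pydc3 4 of 5 in chr1:175398640-175628523. All 12 were higher. At rest, 3 of the 69 antiviral effectors were called higher (0.731% of all tested genes were) and the median of the list was 0.27.

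**Figure D3:**
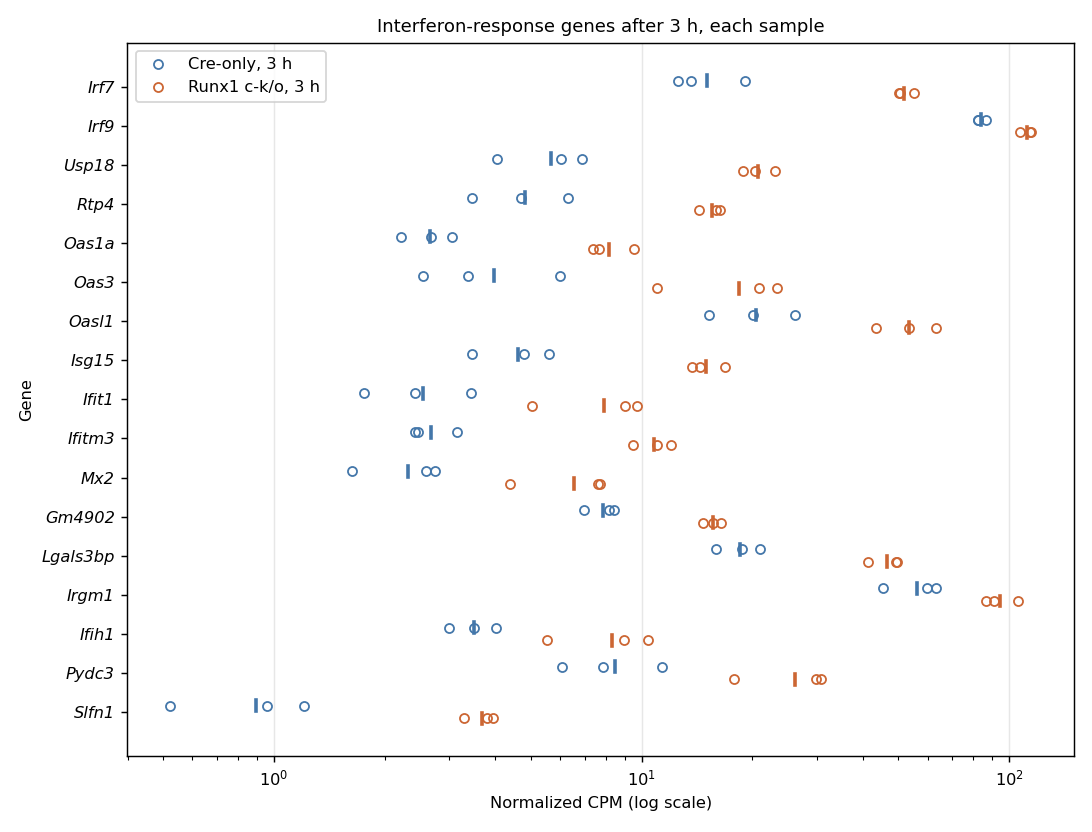
Level of interferon-response genes in each library of 3 h, as normalized CPM on a log axis. Open circles are single samples (blue Cre-only, orange Runx1 c-k/o) and vertical ticks the mean of 3; the genes were picked for display from those called, after their values were seen. In each gene the 3 Runx1 c-k/o samples lie to the right of the 3 Cre-only samples, as for Irf7, at 50.1 to 55.1 against 12.6 to 19.1.

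Immediate early genes, the first transcriptional answer to the BCR, gave only higher calls. Of 14 tested AP-1 and ATF factors 3 were called, 13 had a positive log2 fold change and the median was 0.81. Atf3 was at 32.4, 40.1 and 42.3 CPM in the Cre-only samples and at 78.6, 76.3 and 53.7 in the Runx1 c-k/o samples (log2 fold change 0.86, edgeR adjusted p = 0.0174). Junb was at 138, 181 and 170 CPM against 333, 318 and 221 (log2 fold change 0.84, edgeR adjusted p = 0.0189). Fosl2 was at 119, 155 and 140 CPM against 270, 309 and 335 (log2 fold change 1.14, edgeR adjusted p = 0.0313). The groups did not overlap in any of the 3, but each lost its call without Cre-only replicate 1 (edgeR adjusted p = 0.0963, 0.102 and 0.153). The number called from this list was 0 without Cre-only replicate 1, 0 without Runx1 c-k/o replicate 2, 1 without Cre-only replicate 2, 1 without Cre-only replicate 3 and 5 without Runx1 c-k/o replicate 3.

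Of 30 EGR, NR4A and other immediate early genes 4 were higher and 0 lower, and the median was 0.37. Nr4a2, an orphan nuclear receptor induced by BCR signaling, was at 14.9, 16.9 and 17.6 CPM against 47.6, 45 and 46.1 (log2 fold change 1.49, SE 0.121, edgeR adjusted p = 7.17e-05). Its relative Nr4a1, widely used as a reporter of BCR signaling, was at 443, 513 and 446 CPM against 883, 729 and 651 (log2 fold change 0.69, edgeR adjusted p = 0.0303). Arc was at 0.993, 0.915 and 0.637 CPM against 1.8, 3.08 and 3 (log2 fold change 1.61, edgeR adjusted p = 0.00676). The samples of the genotypes were apart in all 3 genes, and Nr4a2 and Arc kept their calls without any 1 library, whereas Nr4a1 lost its call without Cre-only replicate 1 (edgeR adjusted p = 0.143). Zfp36l2, an RNA-binding protein that destabilizes mRNA, was the fourth (log2 fold change 0.78, edgeR adjusted p = 0.01, and 0.0691 without Cre-only replicate 1). The list gave 9 calls without Runx1 c-k/o replicate 3 and 2 without Cre-only replicate 1.

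Of the genes measured by the study in its other assays, Egr2 and Myc were not called at 3 h. By quantitative PCR at earlier times, scaled to an added RNA, the study found both higher in Runx1 c-k/o cells. The values here are relative to each library, and the assays were not compared. Egr2 was at 624, 622 and 626 CPM against 912, 795 and 838 (log2 fold change 0.44, edgeR adjusted p = 0.37). Myc was at 964, 1064 and 1015 CPM against 1475, 1120 and 1183 (log2 fold change 0.31, edgeR adjusted p = 0.403). In both genes all Runx1 c-k/o samples were above all Cre-only samples, but the differences did not pass the test. Ccnd2, encoding cyclin D2, was at 726, 793 and 727 CPM against 778, 965 and 1222 (log2 fold change 0.40, edgeR adjusted p = 0.346), with overlapping groups. Cd22, an inhibitory coreceptor, was at 242, 221 and 220 CPM against 121, 195 and 149 (log2 fold change -0.56, edgeR adjusted p = 0.086), lower in each Runx1 c-k/o sample. The study listed Cd22 as reduced in its own test of the RNA sequencing, and found less CD22 protein by flow cytometry.

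The transcript 1700016P03Rik, a noncoding RNA on chr11:74986062-74991135 (mm9, plus strand) that spans the hairpins of Mir212 and Mir132, was also higher. It was at 3.28, 3.66 and 3.31 CPM in the Cre-only samples and at 13, 7.55 and 8.72 in the Runx1 c-k/o samples (log2 fold change 1.51, edgeR adjusted p = 0.0117). Counts on the Mir212 hairpin itself were 2, 2 and 4 against 19, 15 and 12 (log2 fold change 2.64, edgeR adjusted p = 0.0103), and those on Mir132 were 8, 9 and 8 against 36, 28 and 24 (edgeR adjusted p = 0.0647). All 3 features were higher in every Runx1 c-k/o sample. The call of the host transcript was lost without Cre-only replicate 1 (edgeR adjusted p = 0.0727), as was that of Mir212 (0.0798), and these poly(A) reads count the long precursor, not mature miRNA. The mature sequences of the 3p arms from RefSeq (GRCm38.p6) are shown because both miRNAs carry the same seed (bases 2 to 8, in capitals).
mmu-miR-212-3p: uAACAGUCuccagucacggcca
mmu-miR-132-3p: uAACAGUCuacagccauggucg

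Among regulators of MAP kinases, 4 of 26 were higher and 0 lower (median 0.03). Dab2ip, a RAS GTPase-activating protein, was at 2.37, 1.96 and 2.61 CPM against 11.8, 15.3 and 12.8. The Runx1 c-k/o samples were all several-fold above the Cre-only samples (log2 fold change 2.52, SE 0.153, edgeR adjusted p = 6.85e-06), and the call held without any 1 library. Dusp5, a phosphatase of ERK, Lrig1 and Rasa4 were also called, but lost their calls in most fits that left out 1 library (edgeR adjusted p up to 0.128, 0.0904 and 0.126), so that 1 gene of the list was called without Cre-only replicate 2, Cre-only replicate 3 or Runx1 c-k/o replicate 2, and 2 without Cre-only replicate 1. Of 28 genes of NF-kB, the kinase Map3k8 alone was called in edgeR's test, at 68.1, 67.3 and 63.5 CPM against 44.9, 39.5 and 47.6 (log2 fold change -0.59, edgeR adjusted p = 0.00582), and 2 genes of the list were called without Runx1 c-k/o replicate 1 or 3. DESeq2 called 4 genes of the list higher and 1 lower. With 1 RUVs factor, DESeq2 called 4 higher and 3 lower, and edgeR 4 higher and 2 lower.

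Of 48 genes that act close to the BCR 3 were higher and 3 lower, with a median of -0.03. Tmem66, a regulator of store-operated calcium entry, was at 25.3, 22.9 and 26.1 CPM against 62.9, 53.7 and 48.1 (log2 fold change 1.15, edgeR adjusted p = 0.000124). Cd81, a tetraspanin of the BCR coreceptor complex, was at 46.4, 44 and 48.3 CPM against 84.8, 83.5 and 63.6 (log2 fold change 0.74, edgeR adjusted p = 0.00653). The SRC family kinase Fgr was higher with a smaller difference (log2 fold change 0.64, edgeR adjusted p = 0.0189, and 0.095 without Cre-only replicate 2). The lower genes included the PI3K catalytic subunit Pik3cd (log2 fold change -0.48) and the PI3K inhibitor Pik3ip1 (-0.69). Their groups did not overlap, and both lost their calls without Cre-only replicate 1 (edgeR adjusted p = 0.161 and 0.0595). The list gave 3 calls in each of the fits without a Cre-only replicate and in that without Runx1 c-k/o replicate 2.

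Inhibitory receptors and phosphatases changed in both directions, with 3 of 38 higher and 5 lower (median 0.07). Cd200, a surface glycoprotein that inhibits myeloid cells through its receptor, was at 15.5, 14.8 and 17.6 CPM in the Cre-only samples and at 59.2, 47.9 and 60 in the Runx1 c-k/o samples. The groups were clearly apart (log2 fold change 1.80, SE 0.109, edgeR adjusted p = 6.85e-06). Cd47, the ligand of SIRPA that restrains phagocytosis, was at 64.4, 63 and 70.3 CPM against 162, 135 and 154 (log2 fold change 1.19, SE 0.0854, edgeR adjusted p = 2.6e-05). The mm9 annotation holds a second identifier on the strand of Cd47, so its reads may be split. Ptpn7, a phosphatase of MAP kinases, was the third higher gene (log2 fold change 0.59, edgeR adjusted p = 0.00518). Ptpn22, a phosphatase that acts on SRC and SYK family kinases, was at 91.2, 94.3 and 99.6 CPM against 45.4, 50.1 and 50.1 (log2 fold change -0.97, SE 0.102, edgeR adjusted p = 0.00029). Lilrb4, an inhibitory immunoglobulin-like receptor, was at 107, 102 and 121 CPM against 47, 46.3 and 54.7 (log2 fold change -1.16, edgeR adjusted p = 0.00199). These 5 genes did not overlap between the genotypes and kept their calls without any 1 library; Ptpn22 shares its strand with Gm15472 and Lilrb4 with its close relative Gp49a. Btla, Ptpn1 and Pdcd1lg2 fell by 0.55, 0.41 and 0.62 on the log2 scale, and each lost its call without Cre-only replicate 3 or 2 (edgeR adjusted p up to 0.0591, 0.121 and 0.131); 5 genes of the list were called without Cre-only replicate 2 or 3.

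In the list of receptors for chemokines and for migration, 2 were higher and 4 lower of 36 (median -0.07). Ccr4, a chemokine receptor that the list does not hold and that was named after its values were seen, had 6, 5 and 1 counts in the Cre-only samples and 14, 11 and 17 in the Runx1 c-k/o samples (log2 fold change 1.96, edgeR adjusted p = 0.023), and kept its call in 3 of the 6 fits that left out 1 library (edgeR adjusted p = 0.0861 without Cre-only replicate 1). Ccr6, the receptor for CCL20, was at 92.6, 115 and 125 CPM against 20.5, 26.5 and 34.6. Every Runx1 c-k/o sample was below every Cre-only sample (log2 fold change -2.03, SE 0.192, edgeR adjusted p = 0.000183). Gpr171, a G protein-coupled receptor, was at 130, 153 and 149 CPM against 74.8, 58.4 and 61.3 (log2 fold change -1.15, edgeR adjusted p = 0.000199). Itga6, a laminin receptor subunit, and Ccr9, the receptor for CCL25, fell by 0.95 and 0.76 on the log2 scale, and Spn (CD43) and Ccrl2 rose by 0.73 and 1.07. The last 4 lost their calls in fits without Cre-only replicate 1 or 2 (edgeR adjusted p up to 0.0697, 0.132, 0.0969 and 0.107), and the number called was 2 without Cre-only replicate 2 and 3 without Runx1 c-k/o replicate 2.

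Of 24 cytokines and growth factors 4 were higher and 1 lower, and the median was 0.51 (0.33 without Runx1 c-k/o replicate 2). Il10, an anti-inflammatory cytokine that B cells can secrete, was at 2.63, 3.46 and 4.33 CPM against 9.53, 11.4 and 10.5 (log2 fold change 1.61, edgeR adjusted p = 0.0114). Il18 was at 0.302, 0.131 and 0.446 CPM against 1.09, 1.31 and 0.942 (log2 fold change 1.89, edgeR adjusted p = 0.0175). Tgfb1 and Lta rose by 0.59 and 0.67, and Tgfb3 fell by 0.79, on the log2 scale. No sample overlapped between the genotypes in these 5 genes, but all 5 lost their calls without Cre-only replicate 1 (edgeR adjusted p = 0.0768, 0.0843, 0.143, 0.177 and 0.0721), and 0 were called without Cre-only replicate 2 and 2 without Runx1 c-k/o replicate 2. Cytokine receptors gave 3 lower genes of 28. Il9r was at 34.4, 33.3 and 59.3 CPM against 7.27, 11.3 and 9.48 (log2 fold change -2.18, edgeR adjusted p = 0.00159). Il1r1, the signaling receptor for IL-1, was at 7.29, 13.2 and 9.81 CPM against 2.25, 2.49 and 2 (log2 fold change -2.16, edgeR adjusted p = 0.000849). Both kept their calls without any 1 library, and the third was Il28ra.

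Of 27 activation and costimulation proteins, Sema7a (log2 fold change 0.51) and Cd81 were higher, and Clec2i (-0.67) and the semaphorin Sema4d (-0.68) lower; 7 were called without Runx1 c-k/o replicate 3. Tnfrsf13c, the receptor for BAFF, was the 1 called gene of 16 TNF receptors, at 338, 341 and 331 CPM against 484, 438 and 447. The groups were apart (log2 fold change 0.44, edgeR adjusted p = 0.0258), but the call was lost with the 6 samples of 3 h alone and in 4 of the 6 fits that left out 1 library, those without any 1 of the Cre-only replicates or Runx1 c-k/o replicate 2 (edgeR adjusted p up to 0.115). Genes of antigen presentation gave 0 calls in edgeR's test among 24 genes of MHC class I (median 0.19, and 0.06 without Runx1 c-k/o replicate 1) and 0 among 18 of MHC class II (median 0.21, and 0.07 without that library). At an unadjusted p under 0.05, 4 class I genes were higher and 1 class II gene was higher and 1 lower, and DESeq2 called 3 and 0 genes. The 81 cytosolic ribosomal protein genes also gave 0 calls in edgeR's test, with a positive log2 fold change in each and a median of 0.38. Of these, 22 had an unadjusted p under 0.05, and DESeq2 called 2, or 59 with 1 estimated factor of unwanted variation (RUVs), all higher. That median was 0.11 without Runx1 c-k/o replicate 1, the library with higher values of short transcripts.

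Of 72 tested mitosis and spindle genes, 13 were lower and 0 higher (22 and 2 by DESeq2, 0 and 0 with the 6 samples of 3 h alone), the median log2 fold change was -0.49, and 9 had a positive value. In 49 of the 72 the Runx1 c-k/o samples all lay below the Cre-only samples, against 12.3% of all tested genes. Mki67, the proliferation marker, was at 49.8, 48.5 and 39.3 CPM in the Cre-only samples and at 13.4, 26.7 and 27.3 in the Runx1 c-k/o samples (log2 fold change -1.03, edgeR adjusted p = 0.0264). Nusap1, a microtubule-bundling protein of the spindle, was at 8.2, 7.84 and 7.01 CPM against 3.99, 4.53 and 5.3 (log2 fold change -0.74, edgeR adjusted p = 0.0148). Cenpe, a kinetochore motor, was at 6.13, 7.9 and 7.01 CPM against 2.38, 4.13 and 3.59 (log2 fold change -1.05, edgeR adjusted p = 0.0201). In all 3 the lowest Cre-only sample was above the highest Runx1 c-k/o sample. Fam83d, a spindle protein, was at 2.68, 2.94 and 2.68 CPM against 0.579, 0.919 and 1.24 (log2 fold change -1.58, edgeR adjusted p = 0.00384), and was the 1 gene of the list called in all 6 fits that left out 1 library. Top2a, which untangles replicated DNA, was at 56.8, 50.6 and 43.6 CPM against 30.7, 34.9 and 35.7 (log2 fold change -0.58, edgeR adjusted p = 0.0244); a small nucleolar RNA lies within it on the same strand. The others were Dsn1, Cenpk, Casc5, Kif4, Kif11, Bub1, Ccnb2 and Prr11. The count was 2 without Cre-only replicate 1, 2 without Cre-only replicate 2, 6 without Cre-only replicate 3, 7 without Runx1 c-k/o replicate 1 and 5 without Runx1 c-k/o replicate 2, and the median was -0.35 without Runx1 c-k/o replicate 1. At rest 5 of the 72 were called lower (0.761% of all tested genes were), with a median of -0.45. Markers of germinal centre B cells, which divide, summed to 276, 299 and 283 CPM in the Cre-only samples and to 259, 254 and 228 in the Runx1 c-k/o samples. Of the 16 markers, Rgs13, Mybl1 and Mki67 were called lower (1 of them without Cre-only replicate 2 or 3 or Runx1 c-k/o replicate 2), and the part of such cells in the mitosis genes was not tested.

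Many mitosis genes carry the cell cycle genes homology region in their promoters, searched as TTTGAA on both strands in the same windows. Promoters were matched for 58 of the 72 genes, and 43 of these held it (74.1%), against 18.2% of the 27025 promoters of the table; among the called genes it was in 7 of 12. The stretches around the match nearest to the start, in capitals, are shown for Kif11 (chr19:37376323-37376381, plus strand), Top2a (chr11:99024190-99024252, minus strand) and Mki67 (chr7:135716432-135716517, minus strand), all in GRCm38.p6 and picked after their values were seen.
Kif11: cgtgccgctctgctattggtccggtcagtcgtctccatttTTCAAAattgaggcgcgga
Top2a: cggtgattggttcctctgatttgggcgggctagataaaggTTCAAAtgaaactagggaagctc
Mki67: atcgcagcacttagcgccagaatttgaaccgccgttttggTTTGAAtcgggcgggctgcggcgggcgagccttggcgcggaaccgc
The promoters of Bub1 and Cenpe held 0 upstream matches. For the RUNX letters, TGTGGT or TGCGGT, promoters were matched for 134 of the 199 higher and 107 of the 176 lower genes, under the minimum of 80%, so no share is given.

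**Figure D4:**
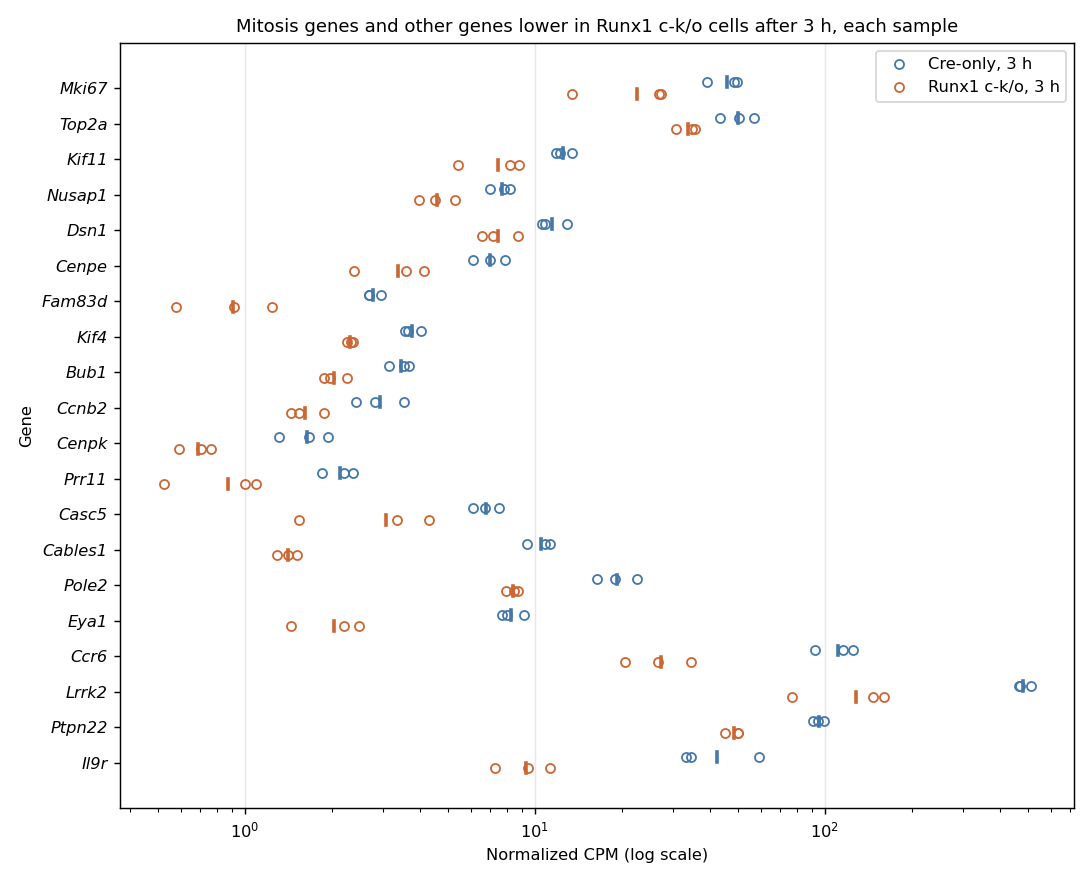
Level of the 13 called mitosis and spindle genes (Mki67 to Casc5) and of 7 other genes lower at 3 h, as normalized CPM on a log axis. Open circles are single samples (blue Cre-only, orange Runx1 c-k/o) and vertical ticks the mean of 3; the last 7 genes were picked for display after their values were seen. In every gene the Runx1 c-k/o samples lie to the left of the Cre-only samples, with the widest gap in Cables1 (1.29 to 1.51 against 9.41 to 11.3).

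Other cell cycle lists held few calls. Of 30 G1 cyclins, CDKs and their inhibitors, Gadd45a was higher and Cables1 lower. Gadd45a, a stress-induced inhibitor of growth, was at 8.2, 6.6 and 7.52 CPM against 17.9, 18 and 16.1 (log2 fold change 1.22, SE 0.102, edgeR adjusted p = 7.2e-05). Cables1, which links CDKs to tyrosine kinases, was at 9.41, 11.3 and 10.8 CPM against 1.29, 1.51 and 1.41 (log2 fold change -2.90, SE 0.198, edgeR adjusted p = 1.3e-05). Both genes were fully separate between the genotypes and kept their calls without any 1 library; 2 genes lie antisense to Cables1. Of 52 DNA replication genes, Pole2, a subunit of DNA polymerase epsilon, was at 16.4, 18.9 and 22.4 CPM against 8.5, 7.94 and 8.77 (log2 fold change -1.19, edgeR adjusted p = 0.000708). Wdhd1 was lower (-0.43) and the origin recognition subunit Orc5 higher (0.55), and both lost their calls without Cre-only replicate 1 or 2 (edgeR adjusted p up to 0.141 and 0.165). Of 36 DNA repair genes, the Fanconi anemia gene Fancc (-0.79) and the nuclease Gen1 (-0.73) were lower and the nuclease Dclre1a higher (1.01), and Gen1 lost its call without Cre-only replicate 2 (edgeR adjusted p = 0.18).

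In the list written for B cell and lymphoid transcription factors, 4 genes were higher and 4 lower of 46 (median -0.10, and -0.01 without Runx1 c-k/o replicate 1). Six5 was nearly absent from the Cre-only samples, with 1, 1 and 0 counts, and had 19, 17 and 19 counts in the Runx1 c-k/o samples (edgeR adjusted p = 0.000157). Hopx was at 4.4, 4.38 and 4.08 CPM against 15.2, 10.9 and 10.4 (log2 fold change 1.5, edgeR adjusted p = 0.000361), and Lyl1 at 37.6, 39.5 and 35.9 against 74.3, 57.2 and 54.1 (log2 fold change 0.72, edgeR adjusted p = 0.00335). Each of these was higher in every Runx1 c-k/o sample and kept its call without any 1 library. Elk3, an ETS factor that can repress, rose by 0.44 and lost its call without Cre-only replicate 1 (edgeR adjusted p = 0.0795). Eya1, a transcriptional cofactor and phosphatase, was at 9.15, 7.71 and 8.03 CPM against 2.19, 1.44 and 2.47 (log2 fold change -2.02, edgeR adjusted p = 0.000149). Aff3, Zfp608 and Mybl1 were lower by -0.77, -0.87 and -1.60 on the log2 scale, and lost their calls in fits without Cre-only replicate 1 or Runx1 c-k/o replicate 2 (edgeR adjusted p up to 0.0666, 0.0657 and 0.0924), and 5 genes of the list were called without Cre-only replicate 2 or 3.

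In the NOTCH pathway 1 of 35 genes was called, with 0 called with the 6 samples of 3 h alone, 2 without Runx1 c-k/o replicate 1 or 2, 3 without Runx1 c-k/o replicate 3, and 6 higher and 3 lower by DESeq2 (8 and 4 with 1 factor of unwanted variation, RUVs, in DESeq2). Psen2, a catalytic subunit of gamma-secretase, was at 41.2, 40.4 and 38.2 CPM against 67.8, 55.4 and 54.6, higher in each Runx1 c-k/o sample (log2 fold change 0.57, edgeR adjusted p = 0.00612). Rbpj, the DNA-binding factor of the pathway, was at 222, 223 and 217 CPM against 242, 270 and 299 (log2 fold change 0.29, edgeR adjusted p = 0.227), and Notch2 at 106, 110 and 113 CPM against 68.7, 142 and 136 (log2 fold change 0.08, edgeR adjusted p = 0.885), with Runx1 c-k/o replicate 1 below and the others above the Cre-only samples. Of 26 genes of the TGF-beta and BMP pathway, Ski and Tgfb1 were higher and Tgfb3 lower, with 0 called without Cre-only replicate 1 or 2 and 1 called without Cre-only replicate 3 or Runx1 c-k/o replicate 2, and 5 without Runx1 c-k/o replicate 3. Of 34 genes of the BCL2 family and death pathway, Tnfaip8 was the 1 called (log2 fold change 0.48, edgeR adjusted p = 0.045, and 0.205 without Cre-only replicate 1), and 0 were called without any 1 of the Cre-only replicates, 4 without Runx1 c-k/o replicate 1 and 2 without Runx1 c-k/o replicate 3.

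Small GTPase regulators and actin genes were 6 higher and 8 lower of 67 (median -0.16, and -0.05 without Runx1 c-k/o replicate 1, the library with lower values of long transcripts). Daam1, a formin that nucleates actin, was at 27.2, 28.1 and 20.7 CPM against 7.47, 9.32 and 8.77 (log2 fold change -1.57, edgeR adjusted p = 0.000191). Gsn, gelsolin, which severs filaments, was at 17.4, 15.6 and 13.1 CPM against 7.6, 8.66 and 6.12 (log2 fold change -1.05, edgeR adjusted p = 0.00133). Arhgap26 (-0.96) and the oxidoreductase Mical1 (-0.58) were also lower. These 4 were separate between the genotypes and held without any 1 library. The higher genes Nckap1, a subunit of the WAVE complex, Arhgef10, Rap1gap and Capg rose by 1.84, 1.34, 1.24 and 0.92, and none of the 6 higher genes kept its call in all of those fits (edgeR adjusted p up to 0.054, 0.0861, 0.0828 and 0.0969 for the 4 named, without Cre-only replicate 1 or 2). The list gave 1 higher and 4 lower calls without Cre-only replicate 1, 2 and 4 without Cre-only replicate 2, and 2 and 5 without Cre-only replicate 3.

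Transporters of solutes, lipids and drugs were 2 higher and 10 lower of 36, with a median of -0.31 (-0.18 without Runx1 c-k/o replicate 1). Abcb1b and Abcb1a, near-identical efflux pumps of the multidrug resistance family, were both lower. Abcb1b was at 24, 28 and 31.7 CPM against 7.08, 7.35 and 11.5 (log2 fold change -1.68, edgeR adjusted p = 0.00175), and Abcb1a at 2.76, 3.53 and 4.71 against 0.772, 1.05 and 0.883 (log2 fold change -2.0, edgeR adjusted p = 0.00115). Their neighbor Rundc3b fell by 1.13. Slco5a1, an orphan anion transporter, had 60, 34 and 30 counts against 1, 3 and 12 (edgeR adjusted p = 0.00847), and Plin3, which coats lipid droplets, fell by 0.74. Slc37a3, Slc27a1, Pltp, Slc44a2, Slc22a15 and Ank completed the lower genes, and Slc25a20, the mitochondrial carnitine carrier, and Ccdc109a, the mitochondrial calcium uniporter, were higher by 0.68 and 0.62. The number of lower calls was 4 without Cre-only replicate 1, 6 without Cre-only replicate 3 and 12 without Runx1 c-k/o replicate 3.

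Lysosomal and endosomal genes were 2 higher and 8 lower of 53 (median -0.09). Cst7, an inhibitor of lysosomal cathepsins, was at 6, 5.75 and 6.12 CPM against 1.09, 0.722 and 1.3 (log2 fold change -2.51, edgeR adjusted p = 0.000732). Plekhm1, an adaptor for fusion with lysosomes, was at 71.5, 68.3 and 71.7 CPM against 42.3, 52.4 and 50.4 (log2 fold change -0.54, edgeR adjusted p = 0.00815). Both were lower in every Runx1 c-k/o sample. The cystine exporter Ctns, Scpep1, Tpp1, Wdr81, Clcn7 and the proton pump subunit Atp6v1a were also lower, and the retromer subunit Vps26b (0.97) and the cation channel Mcoln2 (0.56) higher. Cst7, Plekhm1, Vps26b and Mcoln2 kept their calls without any 1 library, and the number of lower calls was 2 without Cre-only replicate 1, 4 without Cre-only replicate 2, 3 without Cre-only replicate 3 and 4 without Runx1 c-k/o replicate 2. The list gave 4 higher and 6 lower calls without Runx1 c-k/o replicate 1, and 6 and 8 without Runx1 c-k/o replicate 3. DESeq2 called 7 of its genes higher and 11 lower. Of 33 genes of autophagy and around LRRK2, Lrrk2 and Atg16l2 were lower, the latter with its call lost without Cre-only replicate 2 (edgeR adjusted p = 0.113). The list gave 1 call without any 1 of the Cre-only replicates and 4 without Runx1 c-k/o replicate 3. Lrrk2, a kinase of RAB GTPases that is abundant in B cells, was at 470, 466 and 514 CPM against 76.9, 147 and 160. Its Runx1 c-k/o samples all lay far below the Cre-only samples (log2 fold change -1.92, SE 0.231, edgeR adjusted p = 0.000876).

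Sialyl- and glycosyltransferases were 2 higher and 4 lower of 43 (median 0.05). St8sia6, a sialyltransferase, was at 20.6, 23.5 and 22 CPM against 7.66, 7.48 and 10.5 (log2 fold change -1.36, edgeR adjusted p = 0.000594). St6gal1, which makes the glycan ligand of CD22, was at 98, 108 and 94.9 CPM against 44.4, 67.3 and 56.3 (log2 fold change -0.84, edgeR adjusted p = 0.00541). The mannosidase Manea (-0.99) and Gcnt1 (-0.66) were also lower, and St3gal5 (0.86) and Hs3st3b1 (0.88) higher. All 6 were separate between the genotypes, and Gcnt1 and Hs3st3b1 lost their calls without Cre-only replicate 2 or 3 (edgeR adjusted p up to 0.167 and 0.105). In glucose metabolism (31 genes) Slc2a1, the transporter GLUT1, was at 41.3, 39.8 and 41.5 CPM against 68.8, 66.5 and 60.9 (log2 fold change 0.68, edgeR adjusted p = 0.00159), whereas Slc2a6, the related GLUT6, was at 86.1, 75.9 and 83.9 CPM against 27.8, 28.2 and 27.2 (log2 fold change -1.56, edgeR adjusted p = 0.000361). Egln3, an oxygen sensor that hydroxylates HIF, fell by 1.77. These 3 held without any 1 library. In the NADPH oxidase (21 genes with other redox genes), Cybb, its catalytic subunit, was at 171, 181 and 174 CPM against 64, 106 and 85.7 (log2 fold change -1.04, edgeR adjusted p = 0.00344), and Ncf1 fell by 0.45 but lost its call without Cre-only replicate 2 (edgeR adjusted p = 0.0923).

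Outside every list, 12202 genes were tested and 93 were higher and 97 lower. Of these, 78 protein-coding genes were sorted by known function after their values were seen, as a description. Regulators of vesicle traffic were 8 higher (Itsn1, Rab3b, Evi5, Rab37, Ehd4, Epn2, Rin3 and Gripap1) and 4 lower (Dennd4a, Ehd3, Cyth1 and Hook1). Itsn1, an endocytic scaffold, was at 23.6, 18.9 and 20.6 CPM against 63.9, 56 and 57.9 (log2 fold change 1.49, SE 0.123, edgeR adjusted p = 7.2e-05). Ubiquitin ligases and their substrate receptors were 1 higher and 5 lower. The higher gene, Nedd4, was at 15.6, 12.5 and 12.5 CPM against 40.1, 67.8 and 61.8 (log2 fold change 2.06, edgeR adjusted p = 0.000157), and the lower ones were Hecw2, Klhdc1, Klhdc2, Fbxo48 and Socs5. Both Itsn1 and Nedd4 were higher in all Runx1 c-k/o samples and held without any 1 library. Kinases, phosphatases and their regulators were 10 higher, including Trib1, and 3 lower (Tnik, Camk2d and Ppp1r16b). Transcription factors and cofactors were 3 higher (Tsc22d1, Rara and Sertad1) and 9 lower (Bhlhe40, Nrip1, Foxn3, Arid5a, Zfp597, Zfp260, Zfp874a, Zxdb and Rsl1), none of the 9 called in all 6 fits that left out 1 library. RNA-binding proteins and helicases were 4 higher (Hnrpll, Rbms1, Rbpms and Ddx25) and 0 lower, and serpins 3 higher (Serpine2, Serpini1 and Serpina3g) and 0 lower. Adhesion, junction and proteoglycan genes were 6 higher and 6 lower. Muc1, a transmembrane mucin, had 39, 50 and 37 counts in the Cre-only samples and 4, 5 and 3 in the Runx1 c-k/o samples (edgeR adjusted p = 0.000415). Metabolic enzymes were 6 higher and 6 lower, and genes of cilia and microtubule motors 1 higher, the intraflagellar transport subunit Ift57 (log2 fold change 1.92, edgeR adjusted p = 0.000157), and 3 lower.

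The gene with the smallest p was Dmwd on mm9 chr7:19661598-19668125, at 1.34, 1.5 and 2.04 CPM in the Cre-only samples and at 35.6, 38.8 and 29.7 in the Runx1 c-k/o samples. The groups differed by a log2 fold change of 4.43 (SE 0.205, edgeR adjusted p = 4.86e-07). The next genes on the same strand, Dmpk and Six5, were also higher, and these were the 3 tested genes of chr7:19661598-19683694. Dmpk, a kinase, had 4, 9 and 17 counts against 72, 144 and 88 (edgeR adjusted p = 0.000959). The flanking genes Sympk and Fbxo46 had log2 fold changes of 0.04 and 0.03 and were not called. At rest Dmwd differed by a log2 fold change of 3.88 (edgeR adjusted p = 3.74e-07). The lower genes Pole2, Klhdc1, Gm15561 and Klhdc2 made up all 4 tested genes of mm9 chr12:70302766-70411674; Gm15561 is antisense to Klhdc1, and the strand setting of the counting is not given in the sources used here.

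Calls among variable gene segments of immunoglobulin are given by chromosome, and the difference between the loci was not tested. On chromosome 12, which holds the heavy chain locus, 14 of 90 tested segments were lower and 2 higher, and on chromosome 6, which holds the kappa locus, 2 of 91 were higher and 0 lower. The 14 lower segments fell by 0.72 to 1.29 on the log2 scale, and 3 of them kept their calls in all 6 fits that left out 1 library. Gm16829, named by the rule on the smallest p, was at 4.01, 4.12 and 4.01 CPM against 1.74, 1.77 and 1.71 (log2 fold change -1.22, edgeR adjusted p = 0.000414). Segments of a family share most of their sequence, so single values are uncertain. Of 315 tested pseudogenes 5 were higher (Gm12250, Gm15920, Gm6548, Gm9855 and Hmgn2-ps1) and 4 lower (Gm15382, Gm3608, Gm6969 and Rpl30-ps9). Gm6969, chosen after its values were seen, had 107, 73 and 14 counts in the Cre-only samples and 0, 0 and 0 in the Runx1 c-k/o samples. The type is that of the annotation, and Gm12250 is also in the list of interferon-inducible GTPases above. Where a pseudogene is a close copy of another gene, its reads may not be told apart from those of that gene.

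To see which differences predate activation, each gene's difference at 3 h was set beside that at rest. At rest 202 genes were called (1.49% of those tested), 99 higher and 103 lower. The genes called at both times numbered 92, or 24.5% of the 3-h calls and 45.5% of the resting calls, and 91 of them had the same direction. The libraries of the times are separate, but those of Cre-only cells with the same number may share a source. Of the 375 genes called at 3 h, 346 had the same sign at rest and 338 a larger log2 fold change in size at 3 h than at rest, but the genes were chosen for their size at 3 h, and no direction of change over all genes can be read from that.

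The test of the change itself called 11 genes (0.0813% of those tested), 9 with a difference that moved upward from rest to 3 h and 2 downward, and 686 had an unadjusted p under 0.05. Same-numbered Cre-only samples of rest and 3 h deviated together, and with the replicate number as a block in these samples, an alternative chosen after seeing the data, 2 genes were called (Itsn1 and Nr4a2, edgeR adjusted p = 0.0221 for each), while the other 9 had edgeR adjusted p of 0.0592 to 0.112. Of the 11 genes called without the block, 7 were higher in Runx1 c-k/o cells at 3 h (Itsn1, Nr4a2, Tsc22d1, Cd47, Gadd45a, Zbp1 and Elk3). Itsn1 differed by a log2 fold change of -0.13 at rest and 1.49 at 3 h, Nr4a2 by 0.07 and 1.49, Gadd45a by 0.15 and 1.22, Cd47 by 0.24 and 1.19, Zbp1 by 0.11 and 1.04, and Tsc22d1 by -0.20 and 1.04. Elk3 was lower at rest (-0.56, edgeR adjusted p = 0.0051) and higher at 3 h (0.44, edgeR adjusted p = 0.0174). Klhdc2, a substrate receptor of a ubiquitin ligase, differed by 0.11 at rest and by -1.18 at 3 h, where it was at 142, 159 and 179 CPM against 73.4, 70.8 and 67.7. Plcxd2 was lower at both times, by -2.55 at rest and by -1.0 at 3 h. Prss12 and Ass1, which makes argininosuccinate, differed at rest (edgeR adjusted p = 0.000613 and 0.000184) and were not called at 3 h (0.404 and 0.509). For every gene of this text outside these 11, a difference between the times is not shown. The number of such genes was 31 without Runx1 c-k/o replicate 1, 6 without Cre-only replicate 2, 5 without Cre-only replicate 3 and 5 without Runx1 c-k/o replicate 2.

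**Figure D5:**
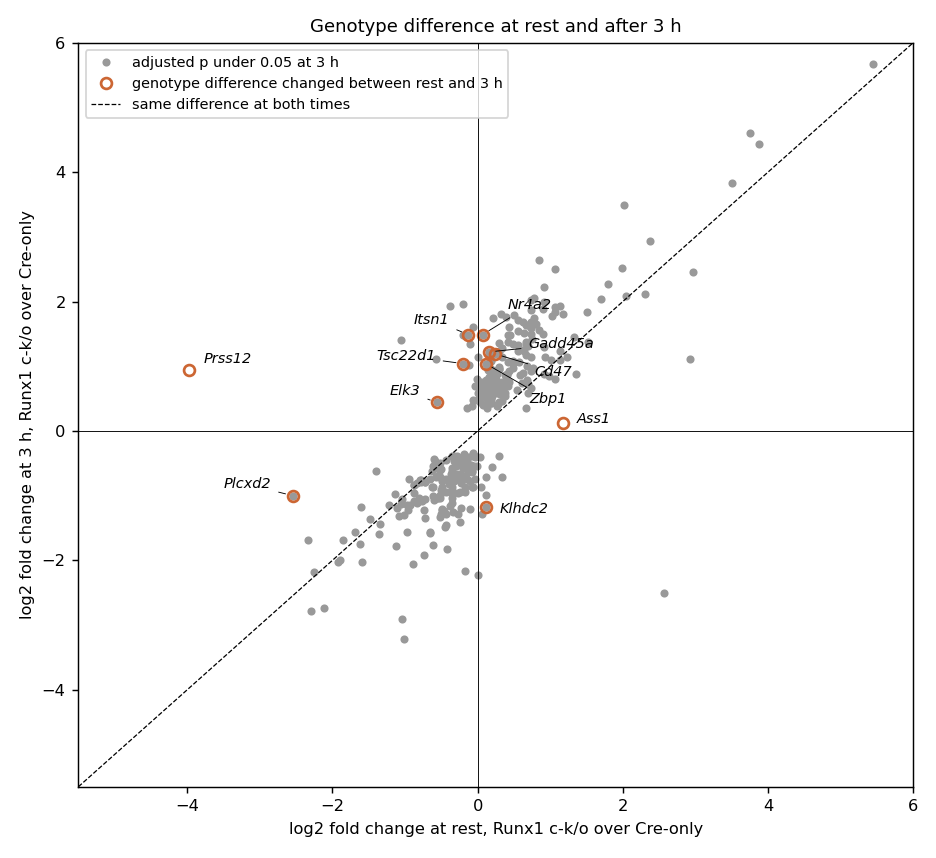
Fitted log2 fold change of Runx1 c-k/o over Cre-only cells at rest (x axis) and after 3 h of activation (y axis) for the genes called at 3 h (gray), leaving out 7 with at most 3 counts in every sample of 1 genotype at 3 h. Orange circles mark the 11 genes whose difference changed between the times by the test, and the dashed line equal differences. Most points lie to the upper right and the lower left of 0, and Itsn1, Nr4a2 and Klhdc2 lie near 0 at rest and away from 0 at 3 h.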

How the data were processed

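RNA of splenic B cells from both genotypes was sequenced by the authors, at rest and after 3 h, with 3 samples per group and 12 in all. Per the labels and the study's methods, stranded poly(A) libraries were sequenced as paired ends, base-called with CASAVA 1.8.4, aligned to mm9 with TopHat2 2.0.11 and Ensembl 66 genes, and counted with featureCounts. The deposited values are raw counts per gene, made by the authors without normalization, for 37991 identifiers; the strand setting and the handling of multiple alignments are not given in the sources used here.

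Here counts were scaled by TMM and tested with edgeR 4.0.16 in R 4.3.3 (quasi-likelihood F test, robust, filterByExpr with a minimum count of 10, all 12 samples in 4 groups sharing 1 spread, no block), with Benjamini-Hochberg adjustment over 13538 genes and a threshold of 0.05. The study used DESeq2 with RUV factors, whose number it does not state, so 1 RUVs factor was an alternative, as were DESeq2 1.42.0, its size factors, other filters, the 6 samples of 3 h alone, a replicate block and leaving out each library. Replicate numbers were checked by the correlation of samples' deviations from their group means, and paired rest with 3 h in Cre-only cells (0.175 to 0.309) but not in Runx1 c-k/o cells, nor between genotypes. Normalized CPM is a gene's counts relative to the TMM-scaled library. With 3 against 3, an exact permutation test cannot give a p under 0.1, so no single-gene permutation test was run. The labels call the samples replicates, and p-values measure only the spread between them; no pair of replicates agreed within sampling noise (mean chi-square per gene 2.95 to 80.2). The models were also run on simulated counts, and the outcome is not given here.

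The function lists and members were chosen with earlier results of these data known, and outside the lists functions were assigned after the values were seen. Values are printed for Runx1; for up to 4 called genes of a list in each direction with the smallest p and groups that do not overlap; for the 15 of each direction over all genes, of which some are given by symbol; for genes called in the test between times; and for genes the study measured otherwise. Gene positions are from the GENCODE annotation of mm9, and sequences from RefSeq (GRCm38.p6); promoters were matched for 8817 of the tested genes. Some items are not reported here.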

Additional observations from a re-analysis of the deposited data

Results flagged for a closer look

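The genotype difference at 3 h less that at rest was tested by edgeR's interaction term, and 11 genes passed at an adjusted p under 0.05. With the replicate number as a block in the Cre-only samples, Itsn1 and Nr4a2 passed (adjusted p = 0.0221 for each) and the other 9 did not (0.0592 to 0.112). It was positive in Itsn1 (1.62 on the log2 scale), Plcxd2 (1.55), Nr4a2 (1.42), Tsc22d1 (1.24), Gadd45a (1.07), Elk3 (1.00), Cd47 (0.95) and Zbp1 (0.93), and negative in Klhdc2 (-1.29) and Ass1 (-1.04). In Prss12 it was 4.91, but at 3 h this gene lay close to the floor of 3 counts in both genotypes, at 0.0863, 0.196 and 0.191 normalized CPM in the Cre-only samples and 0.322, 0.262 and 0.294 in the Runx1 c-k/o samples, so that its size depends on the fit. Groups of 3 samples are too small for a test of single outlying samples.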

How the results depend on the processing

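At 3 h, 375 genes were called as reported, 1230 with 1 RUVs factor in DESeq2, 1036 with 1 RUVs factor in edgeR, 709 with DESeq2's Wald test and 158 with the 6 samples of 3 h alone, while other size factors and filters gave 346 to 388. Of the 375, 364, 371, 370 and 142 were called in the first 4 of these fits. Higher genes made up 53.1% of the calls as reported, 64.6% with the samples of 3 h alone, 67.9% without Runx1 c-k/o replicate 1, but 43.9% with RUVs in edgeR (455 higher, 581 lower) and 43.6% without Runx1 c-k/o replicate 3 (269 higher, 348 lower). Of the 39 function lists, 11, with reported medians of -0.09 to 0.06, had a median of the other sign under at least 1 alternative. The number of calls moved by over 1.5 times, each time to more calls, in 36 of the 39 lists with RUVs in DESeq2, 27 with RUVs in edgeR and 24 with DESeq2, and to fewer in 25 with the 6 samples of 3 h alone. Of the genes with printed or tabulated values, 1 changed sign under an alternative at 3 h, Notch2, which was not called. At rest, 202 genes were called as reported, 611 with RUVs in DESeq2, 524 with RUVs in edgeR and 378 with DESeq2. For the change between the times, 11 genes were called as reported, 253 with RUVs in DESeq2, 142 with RUVs in edgeR and 83 with DESeq2. The cause of these shifts was not tested. Leaving out 1 library gave 180 to 617 calls at 3 h, 81 to 140 at rest and 5 to 31 for the change between the times. Of the 150 genes with printed or tabulated values, 70 kept direction and side of the threshold under each of the 14 alternatives at 3 h; most of the others lost their calls with the 6 samples of 3 h alone (70 genes) or without Cre-only replicate 1 (54).

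The replicate numbers do not pair the samples between genotypes. Same-numbered samples had correlations of their deviations of -0.073, -0.091 and 0.012 at 3 h and of -0.007, 0.02 and 0.102 at rest, and the labels name no shared litter or day. Between rest and 3 h, the Cre-only cells gave 0.309, 0.211 and 0.175, all over 0.1, whereas the Runx1 c-k/o cells gave -0.324, -0.316 and 0.33. Differently numbered Runx1 c-k/o samples gave up to 0.551 (replicate 2 at rest with replicate 1 at 3 h). At rest, Runx1 c-k/o replicate 2 stood apart from replicates 1 and 3 (mean chi-square per gene 36 and 29.3, against 4.84 between replicates 1 and 3). With the replicate number as a block in Cre-only cells alone, chosen after seeing the data, 2 genes were called for the change between the times. With the replicate number as a block, 275 genes were called at 3 h (5 mitosis genes, all lower), 140 at rest and 12 for the change between the times.

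The depth of 15283038 to 23641552 counts per library at 3 h limits statements on genes near 0.127 to 0.196 CPM. The spread among the Runx1 c-k/o samples, larger than that among the Cre-only samples (mean chi-square per gene 13.3 to 80.2 against 2.95 to 5.33), limits the rest.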
